A study of Mus musculus with 18 samples.

Results

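Cathepsin E (Ctse) and 9 other cathepsin genes are described here in mouse thymocytes of the DN3 and DP stages. Cathepsins are proteases of endosomes and lysosomes. They are made as inactive precursors, are sorted to acidic compartments and mature there, where they break down proteins and trim other enzymes and antigens. Ctse and cathepsin D (Ctsd) are aspartic proteases of the pepsin family, cathepsin A (Ctsa) is a serine carboxypeptidase, and Ctsb, Ctsc, Ctsh, Ctsl, Ctss, Ctsw and Ctsz encode cysteine proteases of the papain family. Ctse is best known from stomach epithelium, red cells and antigen-presenting cells.

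The 10 genes were found by name in the authors' deposited tables and joined by Ensembl identifier to the count table, which holds 22619 genes. Ctse was chosen by its measured level, which was higher in autonomy than in turnover at both stages, so its autonomy values are given as a description with no test. The other 9 genes were added as members of the same group of proteases, whatever their values.

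DN3 thymocytes lack CD4 and CD8 and rearrange their T-cell receptor beta locus, while DP thymocytes come later and carry both co-receptors. All cells were sorted by flow cytometry from wild-type thymi 28 days after grafting. In turnover the thymocytes of a graft are replaced by progenitors from outside, and in autonomy the graft maintains thymocyte production without them. Turnover had 4 libraries at each stage (RP1140A, RP1140B, RP1141A and RP1141B), and autonomy had 5 at each stage. The autonomy libraries were RP1133, RP1134, RP1135, RP1137 and RP1138 for DN3, and RP1133, RP1135, RP1136, RP1137 and RP1138 for DP. Host, strain, sex and age do not appear in the sources used here. Whether each library is a separate animal is not stated either, so the p-values speak only for the spread between these libraries, which may be technical.

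The DN3 libraries held 7426834 to 21808512 counts each, and the DP libraries 5032273 to 24191044. Levels are given in CPM, read counts after TMM scaling over all 18 libraries, as mean ± SD. Levels of different genes are compared only in CPM per kilobase of exon. The sorted stages carried their own markers: 6 DN3 stage markers summed to 1628 to 3454 CPM in DN3 and 180 to 479 CPM in DP libraries, and 7 DP stage markers to 8488 to 10136 CPM in DP libraries. One DN3 turnover library stood apart, RP1141B, with 2747 CPM of DP stage markers where the other 8 DN3 libraries had 783 to 1341 CPM. Of these 8, the turnover libraries had 916 to 1341 CPM and the autonomy libraries 783 to 936 CPM. By the edgeR test 3 of the 7 DP stage markers fell in DN3 autonomy and none rose, where 8.35% of all genes fell and 6.53% rose. The 3 were Ccr9 (log2 −4.74), Cd1d1 (−1.20) and Arpp21 (−0.57). Results that rest on RP1141B are given with and without it.

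The catalytic sites show how the proteases are related, and are printed because Ctse and Ctsd, the aspartic pair, had opposite directions in DN3 cells. Their active site is formed by aspartates in an aspartate-threonine-glycine triplet, searched on the coding strand in frame as GAC or GAT, then ACN, then GGN. The triplet occurred at 2 places in the longest coding sequence of Ctse and of Ctsd, at 1 place in Ctsl and nowhere in the other 7 members. The stretches below are coding sequence from GENCODE M21 transcripts of GRCm38, with the triplet in capitals, at coding bases 262 to 324 of both genes for the first and 817 to 879 (Ctse) and 850 to 912 (Ctsd) for the second.
Ctse, first triplet: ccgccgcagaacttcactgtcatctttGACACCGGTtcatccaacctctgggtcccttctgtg
Ctsd, first triplet: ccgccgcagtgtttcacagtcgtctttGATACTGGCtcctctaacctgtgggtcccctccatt
Ctse, second triplet: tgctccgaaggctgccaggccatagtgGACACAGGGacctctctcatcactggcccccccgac
Ctsd, second triplet: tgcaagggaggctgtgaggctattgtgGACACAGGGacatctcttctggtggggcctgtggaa

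The first stretches matched at 48 of 63 bases (76.2%) and the second at 42 of 63 (66.7%). The longest run of identical bases that the coding sequence of Ctse shared with any other member was 14 bases, with Ctsd. For the cysteine proteases, Ctsl is shown because it rose from DN3 to DP in both conditions, and Ctsw because it had the largest fall of the members tested in DN3 autonomy. Capitals mark the codon of the catalytic cysteine, at coding bases 376 to 441 of Ctsl and 415 to 480 of Ctsw for the whole stretches, which matched at 34 of 66 bases.
Ctsl: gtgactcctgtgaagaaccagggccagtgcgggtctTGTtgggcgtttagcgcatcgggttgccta
Ctsw: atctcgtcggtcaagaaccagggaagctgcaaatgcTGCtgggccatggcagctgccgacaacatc

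Cathepsin E itself comes first. Ctse (ENSMUSG00000004552) lies on the plus strand of chromosome 1 of GRCm38, from 131638306 to 131675505. In DN3 turnover it was at 21.8, 13.2, 15.3 and 9.35 CPM in RP1140A, RP1140B, RP1141A and RP1141B. In DN3 autonomy it was at 148, 124, 115, 127 and 120 CPM in RP1133, RP1134, RP1135, RP1137 and RP1138. Every DN3 autonomy library was therefore above every DN3 turnover library, and the autonomy libraries lay close together. The mean was 14.9 ± 5.20 CPM in turnover (n = 4) and 127 ± 12.8 CPM in autonomy (n = 5), an 8.46-fold difference (log2 3.08, SE 0.24). Without RP1141B, which had the lowest level, the log2 difference was 2.92.

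In DP turnover Ctse was at 0, 4.04, 10.1 and 3.56 CPM in the same order of libraries. In DP autonomy it was at 119, 166, 143, 188 and 155 CPM in RP1133, RP1135, RP1136, RP1137 and RP1138. The DP groups did not overlap either. Ctse was low but detected in turnover libraries RP1140B, RP1141A and RP1141B, with 106, 165 and 34 reads. RP1140A had no read, where a count of 0 allows up to 0.437 CPM (3 counts, counting error only). The means were 4.43 ± 4.20 and 154 ± 25.7 CPM, a 32.9-fold difference (log2 5.04, SE 0.63), which was log2 5.78 without turnover library RP1141A, the highest of its group. In bulk samples such as these, fewer cells of a type and less RNA per cell cannot be told apart. The authors' deposited tables give Ctse log2 fold changes of 3.10 (SE 0.23) in DN3 and 5.10 (SE 0.87) in DP.

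**Figure D1:**
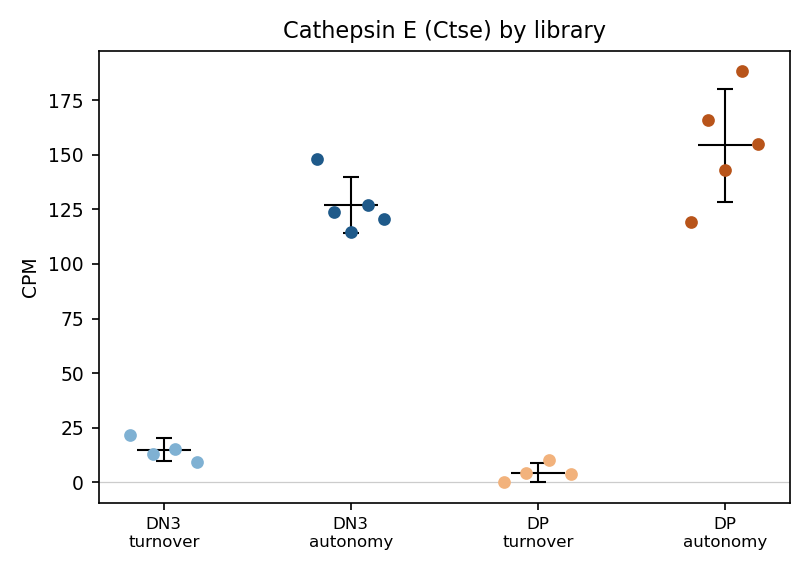
Ctse level in CPM (y axis) in each of the 18 libraries, by group, with bars at the mean ± SD. Autonomy libraries sit between 115 and 188 CPM and turnover libraries between 0 and 21.8 CPM.

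Over the 4 groups the order of Ctse levels was DP autonomy, DN3 autonomy, DN3 turnover and DP turnover. The autonomy groups overlapped with each other, as did the turnover groups, and the gap lay between DN3 autonomy, at 115 CPM or more, and DN3 turnover, at 21.8 CPM or less. The change between stages was not used to choose the gene and was tested. In turnover Ctse fell from DN3 to DP by 1.68 on the log2 scale (SE 0.49, edgeR adjusted p = 0.0121). The call was lost when the fit held the turnover groups alone (log2 −1.72, adjusted p = 0.174), and without DP library RP1141A the change was −2.43. Without DN3 library RP1141B the change was −1.81 (edgeR adjusted p = 0.0112). In autonomy the difference between stages, log2 0.28 (SE 0.41, adjusted p = 0.598), did not pass.

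Per kilobase of exon, Ctse was a minor cathepsin in turnover and one of the main ones in autonomy. Ctse made up 1.94% ± 0.67 of the summed CPM per kilobase of the 10 genes in DN3 turnover and 18.9% ± 1.76 in DN3 autonomy. The corresponding shares were 0.548% ± 0.51 in DP turnover and 13.3% ± 1.58 in DP autonomy. In DN3 its rank went from 8 of 10 in turnover, at 4.69 ± 1.64 CPM per kilobase, to 2 of 10 in autonomy, at 40.0 ± 4.04, below Ctsz (68.2 ± 11.8) with no overlap. In DP it went from 9 of 10 (1.40 ± 1.32) to 4 of 10 (48.7 ± 8.11), where its libraries overlapped with those of the neighbours in the order, Ctsl and Ctsd. The first in the order was Ctsz in both DN3 groups, Ctsl in DP turnover and Ctsa in DP autonomy.

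Markers of cells known to hold cathepsin E were measured beside it. Of 10 erythroid markers, the alpha-globin genes Hba-a1 and Hba-a2 and the anion exchanger gene Slc4a1 had no read in any of the 18 libraries, and the list summed to 1.81 to 9.11 CPM over all libraries. The 12 macrophage markers summed to 25.6 to 39.7 CPM in DN3 turnover and 7.17 to 21.2 CPM in DN3 autonomy, as a sum in the opposite order to Ctse. The genes of the list did not all go one way in DN3. Lyz2 fell (log2 −2.65, SE 0.53, edgeR adjusted p = 0.00709), while Tyrobp (−1.47) and Cd68 (0.47) did not pass. C1qc, Adgre1 and Mpeg1 had reads in DN3 autonomy and none in DN3 turnover. In DP they summed to 7.08 to 47.1 CPM in turnover and 24.6 to 177 CPM in autonomy. Within DP autonomy, library RP1138 had the lowest macrophage sum, 24.6 CPM, with 155 CPM of Ctse. RP1133, with 154 CPM of macrophage markers, had the lowest Ctse of the group, and RP1135, with the highest marker sum, had 166 CPM of Ctse. RP1136 and RP1137, with 53.3 and 73.5 CPM of macrophage markers, had 143 and 188 CPM of Ctse. The 11 dendritic cell markers summed to 109 to 176 CPM in DN3 turnover and 97.0 to 112 CPM in DN3 autonomy. In DP they summed to 102 to 163 CPM in turnover and 181 to 414 CPM in autonomy, without overlap and in the same direction as Ctse. Most of that sum was Cst3, the cystatin C gene of many cell types, at 127 ± 26.5 and 197 ± 44.5 CPM. Of the dendritic list Xcr1, Clec9a and Batf3, markers of cross-presenting cells, had no read in either DP group. Siglech and Cd209a had reads in DP autonomy and none in DP turnover. Cd74 (log2 3.45, SE 0.91, edgeR adjusted p = 0.0741) and H2-Ab1 (1.67, SE 1.08, 0.482) were higher in DP autonomy in point estimate and did not pass. The 8 B cell markers summed to 1263 to 1692 CPM in DP turnover and 1244 to 1715 CPM in DP autonomy, and to 680 to 1519 CPM and 674 to 1368 CPM in DN3, with overlap at both stages. These sums rest on few genes: 2 to 5 of the 8 had reads in a library, 2 were tested at each stage, and Ms4a1 had no read in any group. The part of these cells in the level of Ctse was not tested.

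The genes whose levels most resembled Ctse were ranked by Pearson correlation of log2 CPM over all 18 libraries, among 11520 genes. The 6 nearest were Gadd45g (r = 0.827), a stress-inducible growth arrest gene, Afp (0.809), which encodes alpha-fetoprotein, Taf3 (0.80), a TFIID subunit, Dtx1 (0.794), a Notch target, Lef1 (0.793), a transcription factor of the Wnt pathway, and Wscd1 (0.791). Dtx1 was at 45.6 ± 5.16 CPM in DN3 turnover and 113 ± 51.2 in DN3 autonomy, and at 4.95 ± 3.07 in DP turnover and 40.5 ± 15.3 in DP autonomy. Lef1 was at 219 ± 28.1 and 373 ± 48.4 CPM in DN3 and at 198 ± 48.9 and 285 ± 17.3 CPM in DP. Within the 9 DN3 libraries the nearest were Bmp7 (0.986), Gmnn (0.978) and Agfg1 (0.975), and within the 9 DP libraries Snapc5 (0.948), Nadk (0.947) and Prpf39 (0.941). These libraries share the same 4 groups, so the correlations describe the group pattern.

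None of the other cathepsins was among those nearest genes. Over all 18 libraries the correlation with Ctse ran from −0.40 for Ctsw to 0.42 for Ctsc. Within DN3 libraries Ctsd (−0.90), Ctsa (−0.86) and Ctsw (−0.80) ran opposite to Ctse, and within DP libraries Ctsa (0.89), Ctsb (0.80) and Ctsd (0.73) ran with it.

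Genes next to Ctse on chromosome 1 were looked at for levels that moved with it. The nearest protein-coding genes were Avpr1b, Fam72a and Srgap2 before it and Rab7b, Slc26a9 and Pm20d1 after it. Rab7b, which encodes a small GTPase of the endosome and starts 13190 bases after Ctse, had 0 reads in both turnover groups and 2.81 ± 2.83 CPM in DP autonomy, below the filter on low counts. Fam72a was at 9.70 ± 4.69 CPM in DN3 turnover and 19.3 ± 4.81 CPM in DN3 autonomy (log2 0.98, SE 0.33, edgeR adjusted p = 0.0639), which did not pass. Srgap2 did not pass at either stage, and Avpr1b, Slc26a9 and Pm20d1 had next to no reads.

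The next question was whether the other cathepsins changed in DN3 cells in autonomy. Of the 9, 8 passed the filter on low counts. By the edgeR quasi-likelihood test 3 fell, Ctsd, Ctsa and Ctsw, none rose, and 5 did not pass. Over all 10766 genes tested, 14.9% passed, 6.53% higher and 8.35% lower. The median log2 change of the 8 was −0.26, against −0.05 over all genes.

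Ctsd, the main aspartic protease of lysosomes, was at 77.3, 75.1, 70.0 and 70.6 CPM in the DN3 turnover libraries and at 45.7, 28.7, 40.5, 35.1 and 31.3 CPM in the DN3 autonomy libraries. The groups were well apart, with the turnover libraries within a narrow range. It fell from 73.3 ± 3.54 to 36.3 ± 6.90 CPM, by 1.02 on the log2 scale (SE 0.17, edgeR adjusted p = 0.00274). Its counterpart Ctse was higher in the same libraries.

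Ctsa, which also protects lysosomal beta-galactosidase and neuraminidase in a complex, was at 234, 166, 247 and 262 CPM in turnover and at 145, 86.8, 131, 116 and 109 CPM in autonomy. The lowest turnover library, RP1140B, was above the highest autonomy library, RP1133. The fall was 0.96 on the log2 scale (SE 0.18, adjusted p = 0.00423), from 227 ± 42.5 to 118 ± 22.1 CPM.

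Ctsw, known from cytotoxic lymphocytes, was at 38.8, 40.0, 31.8 and 22.5 CPM in turnover and at 10.01, 0.892, 9.24, 2.11 and 4.49 CPM in autonomy. All autonomy libraries were below all turnover libraries, and RP1134 was near 0. The mean went from 33.3 ± 8.05 CPM in turnover to 5.35 ± 4.12 CPM in autonomy, a fall of 2.63 on the log2 scale (SE 0.51, edgeR adjusted p = 0.00582). Without DN3 turnover library RP1141B the log2 changes were −1.04 for Ctsd (adjusted p = 0.00642), −0.89 for Ctsa (0.0131) and −2.78 for Ctsw (0.00885).

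**Figure D2:**
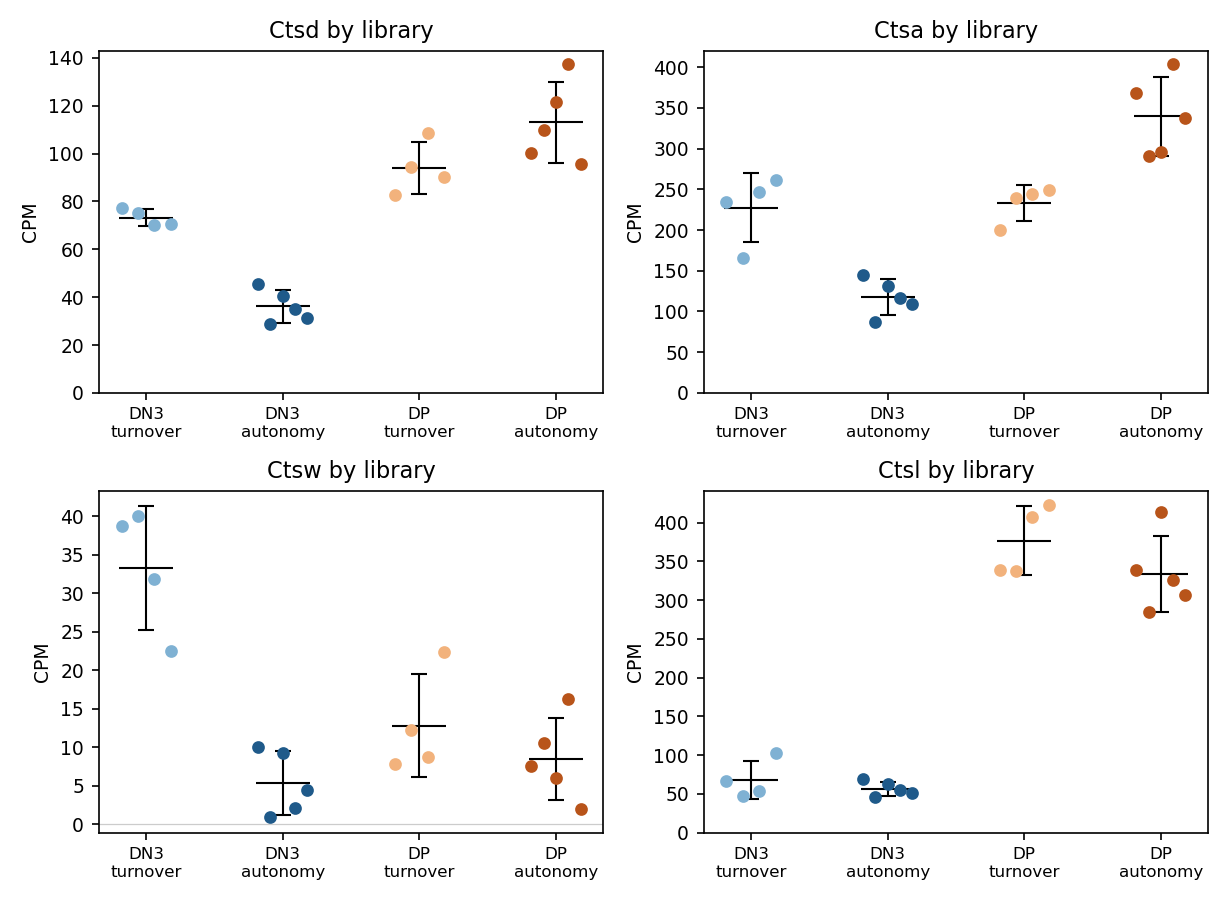
Levels in CPM (y axes, from 0 or just below) of Ctsd, Ctsa, Ctsw and Ctsl in each of the 18 libraries, by group, with bars at the mean ± SD. In DN3 cells Ctsd, Ctsa and Ctsw are lower in autonomy than in turnover without overlap, while Ctsl separates the DP libraries, at 285 to 422 CPM, from the DN3 libraries, at 46.5 to 103 CPM.

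Groups that did not overlap, with all autonomy libraries lower, were found for these 3 genes of the 8, and for 10.1% of all genes tested. None of the 8 had all autonomy libraries higher, as 8.26% of all genes did (18.3% in either direction). The remaining 5 genes differed by less. Ctsb, an endopeptidase and dipeptidyl carboxypeptidase, was at 201 ± 32.5 CPM in turnover and 169 ± 9.42 CPM in autonomy (log2 −0.26, SE 0.14, adjusted p = 0.233). Ctsc, the dipeptidyl peptidase that activates granzymes, was at 123 ± 29.0 and 130 ± 15.3 CPM, Ctsz, a carboxypeptidase, at 111 ± 13.2 and 98.2 ± 17.0 CPM, and Ctsl, an endopeptidase, at 67.8 ± 24.5 and 56.9 ± 9.06 CPM. Ctss, the main invariant chain protease of antigen-presenting cells, had 0 to 2.94 CPM in turnover and 0 to 4.97 CPM in autonomy. Ctsh, an aminopeptidase, did not pass the filter, with reads in 1 library of each DN3 group.

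Of 13 further cathepsin genes in the count table, 1 was tested in DN3 cells: Ctso fell by 0.87 on the log2 scale (SE 0.25, adjusted p = 0.0337), from 26.4 ± 4.42 to 14.5 ± 3.79 CPM, a call lost in 8 of 16 alternatives. The summed level of the 9 cathepsins without Ctse was 240 ± 25.5 CPM per kilobase in DN3 turnover and 172 ± 16.2 in DN3 autonomy. In DP cells that sum was 250 ± 4.82 in turnover and 317 ± 26.1 in autonomy. Neither pair overlapped, and the sums ran in opposite directions at the 2 stages.

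Other genes of the lysosome were counted in the same DN3 comparison. Of 26 other lysosomal hydrolases tested, 6 fell and none rose, where 8.35% of all genes fell and 6.53% rose, with a median log2 change of −0.65 against −0.05 over all genes. The largest falls were in Idua, which degrades glycosaminoglycans (log2 −1.47, SE 0.39, adjusted p = 0.0235, lost in 6 of 16 alternatives), Hexa, the beta-hexosaminidase alpha subunit (−1.20, SE 0.20, 0.00274), and Prcp, a carboxypeptidase (−1.10, SE 0.24, 0.0104, lost in 2 of 16). Hexa went from 82.9 ± 14.0 to 36.4 ± 7.68 CPM. The 16 tested genes of the vacuolar proton pump, which acidifies lysosomes, gave no call in either direction, and their median log2 change, like that of all genes, was −0.05.

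Of 5 tested cystatins and other cathepsin inhibitors, 1 fell: Cst7, cystatin F, an inhibitor of cysteine cathepsins in leukocytes, from 6.72 ± 2.21 to 1.29 ± 0.67 CPM (log2 −2.35, SE 0.54, adjusted p = 0.0123, lost in 2 of 16 alternatives). Counts of 1 in these short lists are to be read against the 8.35% of all genes that fell. Of 14 sorting and processing genes 1 fell, Sort1, the sorting receptor sortilin (−2.15, SE 0.59, 0.0276, lost in 7 of 16). Of 11 lysosomal membrane and TFEB factor genes 1 fell, Npc1, a cholesterol exporter (−1.22, SE 0.37, 0.0446, lost in 10 of 16). Of the 2 tested further aspartic proteases, Bace1, the beta-secretase, fell (−0.84, SE 0.23, 0.0272, lost in 6 of 16).

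Of 6 tested genes of MHC class II antigen processing, in which cathepsins cut the invariant chain and antigens, 3 fell in DN3 autonomy: H2-DMb1 (log2 −4.04, SE 0.86, adjusted p = 0.00925), H2-Ab1 (−1.96, SE 0.44, 0.0115) and H2-DMa (−1.16, SE 0.23, 0.00705). H2-DMb1 and H2-Ab1 lost the call in 2 of 16 alternatives each, and H2-DMb1 went from 5.403 ± 0.72 to 0.331 ± 0.33 CPM. At that low level in DN3 autonomy, H2-DMb1 passed the filter on low counts through DN3 turnover, where it was high. Over all genes tested in this comparison 8.35% fell and 6.53% rose. Counts of called genes in these short lists, and in the marker lists that follow, are to be read against those shares. Markers of other cells were counted in the same comparison, and they did not all go one way. Of 3 tested macrophage markers 1 fell, Lyz2, while Cd68 (log2 0.47) and Tyrobp (−1.47) did not pass. C1qc, Adgre1, Mpeg1 and Marco had no read in DN3 turnover, and of these only Marco had none in DN3 autonomy. Of 2 tested dendritic cell markers 1 fell, H2-Ab1 itself, and the list summed to 109 to 176 CPM in turnover and 97.0 to 112 CPM in autonomy. Of 2 tested B cell markers 1 fell, Cd79b, by 1.48 on the log2 scale (SE 0.32, adjusted p = 0.00975), while Ms4a1, Pax5 and Cd22 had no read in either DN3 group. The 9 thymic epithelial markers summed to 112 to 155 CPM in DN3 turnover and 44.2 to 104 CPM in DN3 autonomy. Of 5 tested 1 fell, Epcam (log2 −1.25, SE 0.29, edgeR adjusted p = 0.0133), and none rose. The 10 mast cell and granulocyte markers summed to 50.4 to 120 CPM in DN3 turnover and 3.03 to 27.2 CPM in DN3 autonomy. Of those 10, 8 had no read in DN3 turnover and 8 had none in DN3 autonomy, Mcpt1, Mcpt2, Mcpt4, Tpsb2 and Ms4a2 in neither. Cpa3 was the only one tested (log2 −2.81, SE 0.58, edgeR adjusted p = 0.00786). In the cytotoxic list, which bears on Ctsw, Gzma rose by 0.64 (SE 0.16, adjusted p = 0.0194) and Nkg7 fell by 2.93 (SE 0.68, adjusted p = 0.0134) on the log2 scale. Of its 10 markers, 5 had no read in DN3 turnover, Ncr1 among them, and 3 had none in DN3 autonomy, where Ncr1 had reads. The part of these cells in the falls was not tested.

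In DP cells none of the other 9 cathepsins passed the edgeR test between autonomy and turnover, where 1.72% of 10339 genes passed, 0.861% in each direction. At an unadjusted p under 0.05 there were 3, Ctsa, Ctsb and Ctsc, all higher in autonomy, but the share of all genes at that level was not counted. DESeq2 called 2 (Ctsa and Ctsb) and limma voom 1 (Ctsa), and an edgeR fit with bias-adjusted deviances 1 (Ctsa). These also called more genes over all: 850 with DESeq2, 434 with voom and 614 with bias-adjusted deviances, against 178 by the edgeR test. The median log2 change of the 9 was 0.42, against −0.02 over all genes.

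Ctsa was at 200, 239, 245 and 249 CPM in the DP turnover libraries and at 369, 292, 296, 404 and 338 CPM in the DP autonomy libraries. The groups did not overlap, and the autonomy libraries spread more widely than the turnover libraries. The log2 difference was 0.53 (SE 0.14, edgeR adjusted p = 0.0667; 0.00402 with DESeq2, 0.0398 with voom). Ctsb was at 173 ± 29.9 CPM in DP turnover and 250 ± 45.8 CPM in DP autonomy, again without overlap (log2 0.52, SE 0.17, edgeR adjusted p = 0.132, DESeq2 0.0427). In the authors' deposited table the adjusted p was 0.00397 for Ctsa and 0.0422 for Ctsb. Groups with all autonomy libraries higher were found for these 2 of the 9 genes and for 4.22% of all genes tested in DP cells, and all lower for none of the 9 and 3.97% of all (8.18% in either direction).

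Ctsd, which fell in DN3 cells, was at 94.0 ± 10.9 CPM in DP turnover and 113 ± 16.9 CPM in DP autonomy (log2 0.25, SE 0.17, adjusted p = 0.502). Ctsw was at 12.8 ± 6.68 and 8.46 ± 5.32 CPM (log2 −0.61, SE 0.59, adjusted p = 0.672). Ctsc was at 77.8 ± 13.6 and 105 ± 10.6 CPM, Ctsz at 72.4 ± 10.8 and 90.9 ± 18.3 CPM, and Ctsl at 377 ± 44.7 and 334 ± 49.1 CPM. Among all the lists of lysosomal genes, inhibitors and MHC class II genes that were counted in DN3, no gene passed in DP cells by edgeR.

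**Figure D3:**
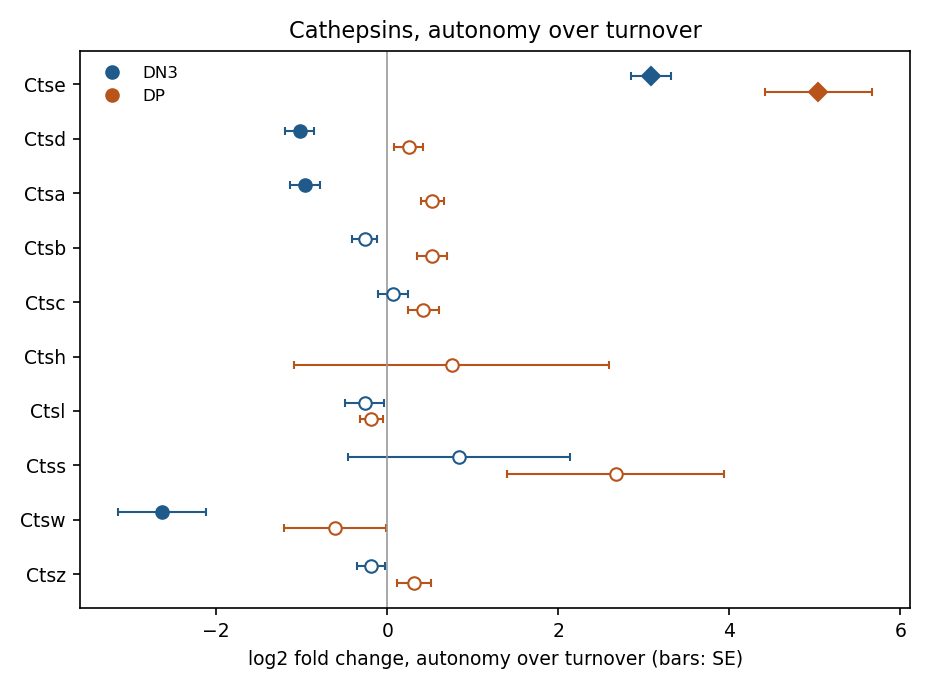
Log2 change, autonomy over turnover (x axis), of each cathepsin in DN3 and DP cells, with bars for the SE of the edgeR fit. Filled circles passed the test and open circles did not, diamonds mark Ctse, which was not tested, and Ctsh is drawn for DP alone. Ctsd and Ctsa are left of 0 in DN3 and right of 0 in DP.

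Ctss and Ctsh differed most from library to library in DP cells. Ctss was at 9.47, 0.724, 4.29 and 0.419 CPM in DP turnover and at 30.9, 71.4, 5.93, 8.03 and 0 CPM in DP autonomy. The groups overlapped, with RP1133 and RP1135 far above the rest and RP1138 without a read. The log2 difference of 2.67 had an SE of 1.27 and did not pass (edgeR adjusted p = 0.306). Ctsh had no read in 11 of the 18 libraries and reached 13.8 CPM in DP turnover library RP1140A and 15.9, 9.46 and 4.52 CPM in DP autonomy libraries RP1133, RP1135 and RP1137.

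The macrophage markers were highest in the same libraries as Ctss, RP1133 and RP1135 of DP autonomy, but did not follow Ctsh in every library. They summed to 154 CPM in RP1133 and 177 CPM in RP1135 of DP autonomy, to 53.3, 73.5 and 24.6 CPM in RP1136, RP1137 and RP1138, and to 47.1 CPM or less in DP turnover. Libraries RP1136 of DP autonomy and RP1141A of DP turnover, with sums of 53.3 and 47.1 CPM, had no read of Ctsh, and RP1140A of DP turnover had 30.3 CPM of markers beside 13.8 CPM of Ctsh. Of 8 tested macrophage markers 1 rose, C1qc, a complement gene, where 0.861% of all genes rose. C1qc had no read in DP turnover and 12.5 ± 11.5 CPM in DP autonomy, so it passed the filter on low counts through DP autonomy alone. The others tested, Lyz2, C1qa, C1qb, Cd68, Mpeg1, Aif1 and Tyrobp, were higher in autonomy in point estimate, by log2 0.19 (Mpeg1) to 4.15 (Tyrobp), and did not pass. Adgre1 and Marco had no read in DP autonomy. Cd74, the invariant chain gene, was at 2.37 ± 2.53 and 25.0 ± 25.4 CPM and did not pass (adjusted p = 0.0741). The part of macrophages in the levels of Ctss and Ctsh was not tested.

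**Figure D4:**
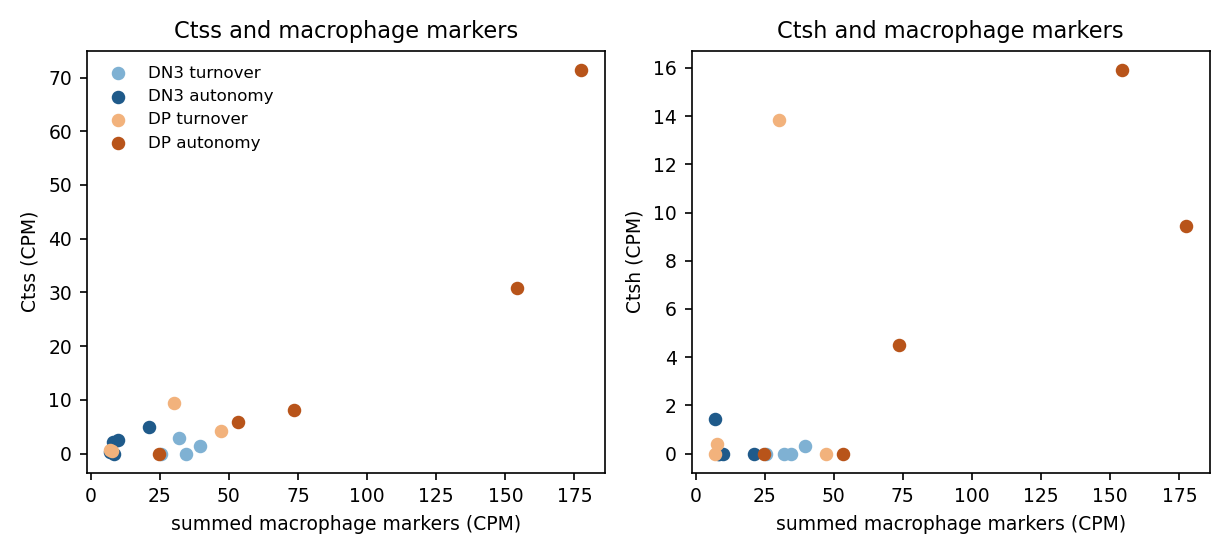
Ctss (left) and Ctsh (right) in CPM (y axes) against the summed CPM of 12 macrophage markers (x axes), 1 point per library, coloured by group. The highest Ctss level, 71.4 CPM, is in the library with the highest marker sum, and Ctsh at 13.8 CPM in a DP turnover library is with a sum of 30.3 CPM.

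The autonomy effect was then compared between the stages in a fit of all 18 libraries. Of the 9 other cathepsins, 3 differed, Ctsa, Ctsd and Ctsb, each with a higher autonomy effect in DP than in DN3, where 5.49% of 11521 genes passed, 2.88% higher and 2.61% lower. The difference was log2 1.49 for Ctsa (SE 0.23, edgeR adjusted p = 0.000845). It was 1.28 for Ctsd (SE 0.24, adjusted p = 0.00287) and 0.79 for Ctsb (SE 0.22, adjusted p = 0.0397). Without DN3 library RP1141B it was 1.40 for Ctsa (edgeR adjusted p = 0.00216) and 1.28 for Ctsd (0.00603). The call of Ctsb was lost in 16 of 25 alternatives, among them the fit without DN3 library RP1141B (adjusted p = 0.106), and that of Ctsd when the A and B libraries of a number were summed (0.0712). For Ctsw the difference was 2.04 (SE 0.84, adjusted p = 0.172). For Ctse, described with no test, it was 1.96 (SE 0.64). Of 26 other hydrolases 3 differed in the same direction, among them Ppt1, a thioesterase (log2 1.23, SE 0.25, adjusted p = 0.0081, lost in 1 of 25 alternatives), and Man2b1, the lysosomal alpha-mannosidase (0.90, SE 0.21, 0.0154, lost in 2 of 25).

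The change from DN3 to DP was the last comparison, and it was tested for all 10 members. In turnover 1 rose and 3 fell by edgeR, where 34.9% of 11521 genes passed, 15.8% higher and 19.1% lower. Ctsl was at 66.6, 47.6, 54.5 and 103 CPM in the DN3 turnover libraries and at 339, 337, 408 and 422 CPM in the DP turnover libraries. Every DP library was above every DN3 library, and the highest DN3 level was in RP1141B, the library with DP stage transcripts. Ctsl rose 5.56-fold (log2 2.47, SE 0.21, adjusted p = 1.03e-07), and by 2.78 on the log2 scale without RP1141B. Ctsc fell by 0.67 (SE 0.18, adjusted p = 0.00672), from 123 ± 29.0 to 77.8 ± 13.6 CPM, by 0.48 without RP1141B (adjusted p = 0.0476).

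Ctsz fell by 0.62 on the log2 scale (SE 0.19, adjusted p = 0.0146), and the call was lost without DN3 library RP1141B (0.0604), without DP library RP1141B (0.0602) and with A and B libraries summed (0.151). Ctse was the third gene to fall, as given above. Ctsa, Ctsb, Ctsd, Ctsh, Ctss and Ctsw did not pass. In Ctsw all DP libraries, at 7.87 to 22.4 CPM, were just below all DN3 libraries, at 22.5 to 40.0 CPM. It did not pass by edgeR (log2 −1.38, adjusted p = 0.0947), and passed with voom (0.00354), with bias-adjusted deviances (0.00411) and in the fit of the turnover groups alone (0.0197). Libraries without overlap were found for 4 of the 10, with DP higher for Ctsl and Ctsd and lower for Ctsz and Ctsw, against 34.7% of all genes, 15.1% higher and 19.6% lower.

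In autonomy 5 members rose from DN3 to DP and none fell, where 49.0% of genes passed, 23.7% higher and 25.2% lower. Ctsd rose 3.12-fold (log2 1.64, SE 0.16, adjusted p = 6.97e-08), from 36.3 ± 6.90 to 113 ± 16.9 CPM. Ctsa rose 2.89-fold (log2 1.53, SE 0.16, adjusted p = 1.49e-07), from 118 ± 22.1 to 340 ± 48.2 CPM. Ctsl rose 5.87-fold (log2 2.55, SE 0.19, adjusted p = 2.41e-09) and Ctsb 1.48-fold (log2 0.57, SE 0.15, adjusted p = 0.00314). For Ctsa, Ctsb, Ctsd and Ctsl the groups did not overlap, as for 17.1% of all genes with every DP library higher, 20.8% with every one lower and 37.9% in all.

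Ctss was the fifth, from 1.99 ± 2.01 to 23.3 ± 29.4 CPM (log2 3.52, SE 1.39, adjusted p = 0.0414), with overlapping libraries. The call was lost in 8 of 18 alternatives: without DN3 autonomy library RP1133, RP1134, RP1137 or RP1138, without DP autonomy library RP1133 (adjusted p = 0.0652) or RP1135 (log2 2.47, adjusted p = 0.167), with voom, and with a replicate block (log2 2.69, adjusted p = 0.301). Macrophage markers summed to 7.17 to 21.2 CPM in DN3 autonomy and 24.6 to 177 CPM in DP autonomy, and dendritic cell markers to 97.0 to 112 and 181 to 414 CPM, with the highest sum of both lists in RP1135, as for Ctss. Of 10 MHC class II processing genes 5 rose and 1 fell in the same comparison, with Cd74 rising from 0.329 ± 0.30 to 25.0 ± 25.4 CPM (edgeR adjusted p = 0.000133). Over all genes 23.7% rose and 25.2% fell. Of the 5, Cd74, H2-Aa and H2-Eb1 were below the filter on low counts among the DN3 libraries alone. They passed it in the fit of all 18 libraries through the DP libraries, where they were higher. The part of antigen-presenting cells in the rise of Ctss was not tested.

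**Figure D5:**
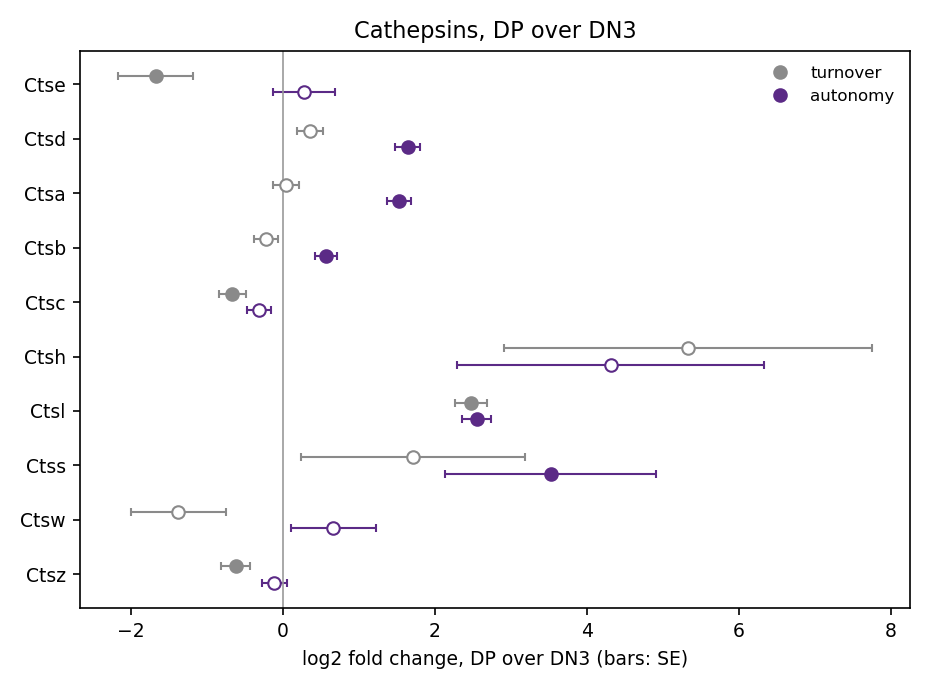
Log2 change, DP over DN3 (x axis), of each cathepsin in turnover and in autonomy, with bars for the SE of the edgeR fit and filled circles for genes that passed the test. Ctsl is at 2.47 and 2.55 in the 2 conditions, and Ctsd and Ctsa are filled in autonomy alone.

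The other lysosomal lists in the same stage comparison held these counts. Of 16 proton pump genes, 2 were higher in DP in turnover, where 15.8% of all genes were, and 8 in autonomy, where 23.7% were, with none lower. Among 26 hydrolases, 2 were higher and 3 lower in turnover, and 5 higher and 2 lower in autonomy. Lipa, the lysosomal acid lipase, rose in both conditions, by log2 3.07 (SE 0.33, adjusted p = 8.44e-07) and 3.69 (SE 0.30, adjusted p = 6.83e-09), and Gusb, the beta-glucuronidase, fell by 1.99 (SE 0.39, adjusted p = 0.000507) and 2.15 (SE 0.35, adjusted p = 3.74e-05). Among 14 sorting genes 2 were higher and 1 lower in turnover, and 5 higher and 2 lower in autonomy. Psap, the precursor of the saposins, rose by 0.83 (SE 0.16, adjusted p = 0.000438) and 1.11 (SE 0.14, adjusted p = 2.18e-06). Of 13 lysosomal membrane and TFEB factor genes 3 were higher in turnover and 5 in autonomy, with none lower, Laptm5, a lysosomal membrane protein of blood cells, rising by 1.48 (SE 0.21, adjusted p = 1.79e-05) and 1.57 (SE 0.19, adjusted p = 8.08e-07). Of 10 MHC class II processing genes 1 was higher and 2 lower in turnover, and 5 higher and 1 lower in autonomy, where the median log2 change was 2.46 against −0.0030 over all genes. Of the 5, Cd74, H2-Aa and H2-Eb1 passed the filter on low counts through the DP libraries, as given above. Of 6 inhibitors 1 was lower in turnover, and 3 were higher and 1 lower in autonomy. The inhibitor lower in both conditions, Serpinb1a, an inhibitor of neutrophil serine proteases, was at 47.9 ± 15.4 CPM in DN3 turnover and 11.5 ± 14.9 CPM in DN3 autonomy and had no read in any DP library.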

How the data were processed

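RNA of sorted DN3 and DP thymocytes was sequenced by the submitters. The deposited table gives whole-number read counts for each Ensembl gene, not normalized. The submitters' processing notes name FastQC, HISAT2, featureCounts and DESeq2 on mm10 and GRCm38; their versions and the strand setting do not appear in the sources used here. The authors' deposited tables, per the file headers, hold their log2 fold changes, p-values and adjusted p-values, and also a mean normalized signal and a Wald score, both not used. All 18 count columns matched a sample by name.

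Counts were tested here in R 4.3.3 with edgeR 4.0.16 (quasi-likelihood test, TMM, filterByExpr, Benjamini-Hochberg adjustment over all genes tested, threshold 0.05), within each stage for autonomy against turnover and over all 18 libraries for the other comparisons. DESeq2 1.42.0, limma 3.58.1 (voom), other scaling and filters, and libraries left out in turn were the alternatives; the bias-adjusted edgeR fit was added after the data were seen. CPM per kilobase used the exon length of GENCODE M21, which matched 22601 of 22619 identifiers. Alternatives that ended a call are counted over all those run for that result.

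The members and lists were chosen with earlier results of these data known. The text names the 10 members, the 3 largest passing changes per list and direction, the genes most correlated with Ctse and its 3 nearest genes on each side; passing marker genes, Hexa levels and a few list genes given for both conditions were chosen after their values were seen. One gene that the rule picks is not reported here; it remained in the fits and counts. Precision is limited by 4 to 5 libraries a group, and amplified reads are not independent molecules, so the floor for a count of 0 covers counting error only.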

Additional observations from a re-analysis of the deposited data

Results flagged for a closer look

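In 39 sets of values, 1 gene in 1 group of libraries each, 3 single libraries lay far from the others of their group, where chance alone gives about 1 in 20 such sets. Ctsc was at 98.0 CPM in DP turnover library RP1140A, while the other 3 libraries of the group lay between 68.6 and 72.3 CPM. Ctsh was at 1.42 CPM in DN3 autonomy library RP1133 and had no read in the other 4. Ctsh was at 13.8 CPM in DP turnover library RP1140A, where the next value was 0.419 CPM. RP1140A of DP turnover had the lowest total count of its group, 6329039, and no read of Ctse.

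The autonomy effect differed between the stages for 3 cathepsins by the interaction test of edgeR. The effect in DP minus that in DN3 was log2 1.49 for Ctsa, 1.28 for Ctsd and 0.79 for Ctsb. Over all genes tested 5.49% passed, 2.88% higher and 2.61% lower. The call of Ctsb was lost in 16 of 25 alternatives. Over the libraries, Ctsa and Ctsd were lower in 5 of 5 DN3 autonomy libraries than in any DN3 turnover library, as were 10.1% of all genes tested. Ctsa and Ctsb were higher in 5 of 5 DP autonomy libraries than in any DP turnover library, as were 4.22% of all genes tested.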

How the results depend on the processing

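The counts of cathepsins called were 3 in DN3, 4 and 5 between stages and 3 for the difference between stages. Over all genes tested 14.9% passed in DN3, 34.9% and 49.0% between stages and 5.49% for the difference. For the other cathepsins in DP the count of 0 became 2 with DESeq2, 1 with limma voom and 1 with the bias-adjusted edgeR fit, and for the difference between stages 3 became 1 with A and B libraries summed. With 1 library left out the counts were 3 throughout in DN3, 0 throughout in DP, 3 to 4 and 4 to 5 between stages and 2 to 3 for the difference. Ctsd, Ctsa and Ctsw kept their call in DN3 under all 16 alternatives.

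Directions turned only for values that had not passed. Ctsh, as the difference between stages, was log2 −1.02, and was 2.57 with voom, 0.084 with A and B libraries summed, 1.07 with the replicate block and −4.11 to 3.84 with 1 library left out. Ctsl in that comparison was 0.08, and was −0.12 with the replicate block and −0.21 to 0.22 with 1 library left out. With 1 library left out Ctsc in DN3 ranged from −0.050 to 0.23, Ctsl in DN3 from −0.40 to 0.0081 and Ctsa between stages in turnover from −0.090 to 0.15. The causes were not tested.

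The labels do not say what libraries of one number share, and the data gave no pairing to use: deviations of the 8 same-numbered DN3 and DP pairs correlated at 0.00118 to 0.0521, and 3 of 8 matched best with their own number. The replicate block gave 2 calls for the difference between stages, Ctsa (log2 1.43, adjusted p = 0.0133) and Ctsd (1.18, 0.0478), and Ctsb at 0.133.

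Over all genes, 1602 passed in DN3, against 2436 with DESeq2, 1006 in the fit of 18 libraries, 507 with A and B summed and 811 to 1784 with 1 library left out. In DP 178 passed, against 850 with DESeq2, 434 with voom, 614 with the bias-adjusted fit, 279 in the fit of 18 libraries, 16 with A and B summed and 33 to 252 with 1 left out. In turnover 4021 genes differed between stages, and 2170 with A and B summed. For the difference between stages 633 passed, against 1103 with DESeq2, 291 with the replicate block and 145 with A and B summed. Depth limits Ctsh and Ctss most, with no read in 11 and 4 of 18 libraries.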
